A study of Mus musculus with 6 samples.

Results

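The interferon regulatory factors are a family of transcription factors that share a DNA-binding domain and recognise repeats of GAAA in the promoters of interferon genes and interferon-induced genes. Their genes were taken by symbol from the deposited expression table as Irf1, Irf2, Irf3, Irf4, Irf5, Irf7, Irf8 and Irf9, which are 8 of the 18268 genes listed. The table holds RNA sequencing of whole colorectum from C57BL/6 mice, described as adult males in the study's methods. All mice had colitis from 7 days of dextran sulfate sodium (DSS), which damages the lining of the colon. In addition, 3 mice received berberine (BBR), a plant alkaloid, and 3 received sulfasalazine (SASP), a drug used for inflammatory bowel disease, each by gavage for 6 days. Healthy mice and colitis mice without a drug were not analysed here. Each difference is thus BBR against SASP under the same injury, and neither group is a baseline. Words such as fell, rose, lower and higher mean BBR relative to SASP throughout. Which of the drugs moved a gene was not tested. Mouse numbers 1 to 3 follow the order of the records and pair no BBR mouse with a SASP mouse. Depth was not given and was estimated from the lowest expression values, at about 16400000 to 18200000 reads a mouse. BBR mouse 3 stood apart from the other BBR mice, and leaving it out raised the number of called genes from 1069 to 4018, so members that depend on it are given with and without it.

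Members of the family divide the work. IRF3 and IRF7 are activated by phosphorylation downstream of nucleic acid sensors and Toll-like receptors and induce type I interferon genes, and IRF5 acts downstream of Toll-like receptors in myeloid cells. IRF9 is the DNA-binding part of ISGF3, the complex that carries the type I interferon signal to the nucleus, while IRF1 is induced by interferon gamma and drives antigen presentation genes. IRF2 can occupy the same sites as IRF1 and oppose it, and IRF4 and IRF8 work mainly in lymphoid and myeloid cells with partner factors. Several of the proteins are regulated by phosphorylation and nuclear entry, which RNA levels do not measure.

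The promoters of Irf1, Irf8 and Irf2 are shown because they were the members' promoters that held a match to 1 of 2 motifs through which interferon signals reach genes. The motifs were the STAT dimer site, searched as TTCNNNGAA (GAS), and the interferon-stimulated response element, searched as GAAANNGAAA (ISRE), both on either strand. Each run gives the 250 bases before the RefSeq start in build GRCm38.p6, 5′ to 3′ on the plus strand, which is the coding strand of all 3 genes, with motif matches in capitals. Irf1 lies at chr11:53769764-53770013, Irf8 at chr8:120736108-120736357 and Irf2 at chr8:46739495-46739744.
Irf1: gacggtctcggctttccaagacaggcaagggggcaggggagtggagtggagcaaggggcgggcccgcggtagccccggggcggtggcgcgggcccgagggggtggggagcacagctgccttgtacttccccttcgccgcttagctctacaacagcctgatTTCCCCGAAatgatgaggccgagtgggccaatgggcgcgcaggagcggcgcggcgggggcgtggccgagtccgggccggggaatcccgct
Irf8: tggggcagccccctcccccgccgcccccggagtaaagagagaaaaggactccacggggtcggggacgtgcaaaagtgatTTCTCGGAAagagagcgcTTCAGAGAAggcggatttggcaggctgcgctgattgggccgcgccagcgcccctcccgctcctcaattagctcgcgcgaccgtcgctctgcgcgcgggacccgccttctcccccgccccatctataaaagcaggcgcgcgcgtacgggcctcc
Irf2: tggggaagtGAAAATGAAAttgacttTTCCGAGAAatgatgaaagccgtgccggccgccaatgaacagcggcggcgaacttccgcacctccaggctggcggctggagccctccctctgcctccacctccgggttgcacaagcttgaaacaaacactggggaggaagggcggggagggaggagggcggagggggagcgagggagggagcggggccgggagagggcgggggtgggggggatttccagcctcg

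The Irf1 window held 1 GAS match, TTCCCCGAA, at -90 to -82 from the start. The Irf8 window held 2 GAS matches, TTCTCGGAA at -171 to -163 and TTCAGAGAA at -153 to -145. The Irf2 window held a GAS match, TTCCGAGAA at -224 to -216, and an ISRE match, GAAAATGAAA at -241 to -232, which did not overlap. No match stood in the windows of Irf3, Irf4, Irf5, Irf7 or Irf9, nor in the second annotated windows of Irf1, Irf8 and Irf9. Over all 32851 promoter windows of this length in the table, 7.02% held a GAS match, 2.98% an ISRE match and 0.332% both. These are descriptions of letters, and no binding was measured.

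Of the 8 genes, 3 fell in BBR relative to SASP, which were Irf8, Irf1 and Irf9, and none rose. Another 4 were tested and not called, and Irf4 was too low to be tested. Values are FPKM, a level corrected for transcript length and library size, and the test was limma on log2(FPKM + 1) over the 12072 genes with at least 1 FPKM in at least 3 of the 6 mice, with Benjamini-Hochberg adjustment and a threshold of 0.05. Among all genes tested, 5.04% were lower, 3.82% were higher and 8.86% were called in either direction. The median difference of the 7 tested members was -1.09, and that of all tested genes was 0.097. In 5 members each BBR mouse lay below each SASP mouse, against 16.6% of all tested genes, and in none did BBR lie above SASP without overlap, against 21.3%. At an unadjusted p of at most 0.05 in limma, a threshold added after the data were seen, 5 of the 7 members passed, all lower, against 31.8% of all tested genes in either direction. The limma p-values set each group difference against the spread between mice within a group, moderated over all genes. Nothing in the labels describes the mice further, so a batch that followed the groups could not be told apart from the drug. In bulk tissue, fewer cells that express a gene and less RNA per cell cannot be told apart.

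**Figure D1:**
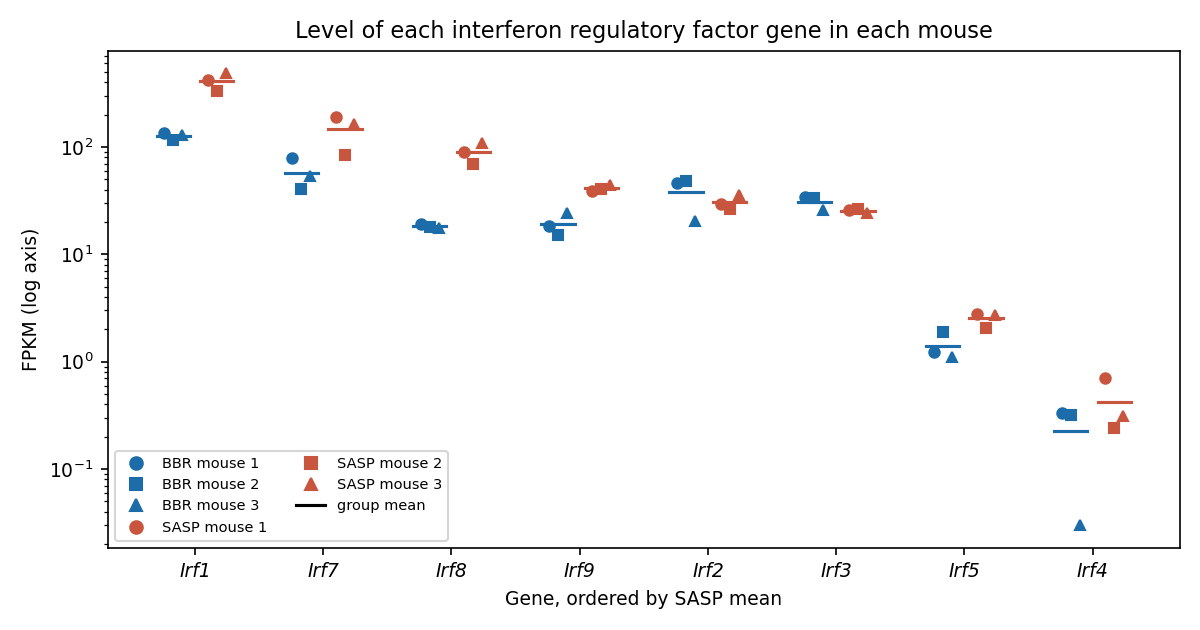
FPKM on a log axis for each of the 8 genes in each of the 6 mice, BBR and SASP side by side, with a bar at each group mean. Irf8 sits near 18.2 FPKM in BBR and 89.3 in SASP with a wide gap, Irf1, Irf9, Irf7 and Irf5 are also separated, and Irf2, Irf3 and Irf4 overlap.

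Irf1 was the most abundant member in every mouse. It was at 135, 116 and 128 FPKM in the BBR mice and 422, 329 and 484 FPKM in the SASP mice. The groups were far apart, with the lowest SASP value from SASP mouse 2. The paper lists Irf1 among immune response genes that SASP raised relative to colitis mice without a drug. It also reports that BBR lowered many immune response and Jak-Stat pathway genes relative to such mice. How much of the difference below came from SASP or from BBR was not tested. Irf1 fell by 1.68 on the log2 scale (SE 0.16, 95% interval -2.06 to -1.30, limma adjusted p = 0.00478), which is a 3.26-fold higher mean in SASP.

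Irf8, known as a factor that specifies monocytes, dendritic cells and B cells and that interferon gamma also induces, differed most. Its values were 19.0, 17.8 and 17.7 FPKM with BBR, and 89.5, 69.9 and 109 FPKM with SASP. The BBR mice were nearly equal (18.2 ± 0.711, SD, n = 3), while SASP mouse 2 was again the lowest of its group (89.3 ± 19.3, SD, n = 3). Irf8 fell by 2.21 on the log2 scale (SE 0.16, 95% interval -2.60 to -1.83, limma adjusted p = 0.00171), a 4.91-fold higher mean in SASP.

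Irf9 was at 18.4, 15.0 and 24.2 FPKM with BBR, and 39.2, 40.8 and 44.2 FPKM with SASP. No BBR mouse reached the SASP range, and here SASP mouse 2 was not the lowest. It fell by 1.09 on the log2 scale (SE 0.17, 95% interval -1.50 to -0.69, limma adjusted p = 0.0186), 2.15-fold higher in SASP. The Irf9 call was the least firm of the 3. It was lost when 1 mouse was left out in 4 of 6 cases, with limma adjusted p = 0.0685 without BBR mouse 1, 0.0837 without SASP mouse 1, 0.0522 without SASP mouse 2 and 0.0932 without SASP mouse 3. The differences in those fits were -1.08, -1.13, -1.10 and -1.05. Fewer genes passed in the whole table in those fits as well, at 131, 59, 405 and 51 against 1069 in the main fit. The Irf9 call was kept without BBR mouse 2, at -0.94 (limma adjusted p = 0.0395), where 371 genes were called. It was also kept without BBR mouse 3, at -1.27 (limma adjusted p = 0.00178), where 4018 genes were called. Irf1 and Irf8 kept their calls in all 6 cases.

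Irf7, the amplifier of the type I interferon response, was the second most abundant member by mean in both groups. BBR mice had 78.4, 40.5 and 53.3 FPKM and SASP mice had 189, 84.2 and 165 FPKM. The highest BBR mouse and the lowest SASP mouse nearly touched, and SASP mouse 2 stood far below the other two. The difference was -1.30 (SE 0.35, 95% interval -2.13 to -0.48, limma adjusted p = 0.0621), which did not pass the threshold. Without SASP mouse 2 it was -1.66 and passed.

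Irf5, a myeloid factor, was low, at 1.22, 1.90 and 1.11 FPKM with BBR, and 2.81, 2.06 and 2.75 FPKM with SASP. The nearest values, BBR mouse 2 and SASP mouse 2, were separated by less than the spread within either group. The difference was -0.56 (SE 0.18, 95% interval -0.98 to -0.14, limma adjusted p = 0.0853). These levels correspond to roughly 41.7 to 112 reads a mouse. In the GENCODE M21 annotation 14.2% of its exonic bases are shared with Tnpo3 on the opposite strand, which was at 16.1 to 18.8 FPKM in all mice, and whether counting used the strand is not stated.

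Irf3, a constitutive factor activated by phosphorylation, was at 33.9, 33.1 and 25.7 FPKM with BBR, and 25.6, 26.2 and 24.3 FPKM with SASP. The groups overlapped only through BBR mouse 3. The difference was 0.27 (SE 0.13, 95% interval -0.036 to 0.57, limma adjusted p = 0.197). This interval excludes a decrease of the size seen for Irf1, Irf8 or Irf9.

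Irf2, the antagonist, was at 46.4, 48.2 and 20.5 FPKM with BBR, and 29.4, 26.6 and 35.9 FPKM with SASP. BBR mouse 3 was the lowest of all 6, whereas BBR mice 1 and 2 were above every SASP mouse. The difference was 0.23 (SE 0.32, 95% interval -0.53 to 0.99, limma adjusted p = 0.640), so its direction was not settled. Without BBR mouse 3, Irf2 was 0.62 and Irf3 0.39 higher in BBR on the log2 scale, and both passed the threshold. In that fit 4018 of the 11878 genes tested were called, 2649 of them higher, so such calls were common. BBR mouse 3 also had the highest summed smooth muscle markers, at 6662 FPKM against 714 to 2910 in the other 5 mice.

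Irf4, needed in lymphocytes and plasma cells, was at 0.33, 0.32 and 0.03 FPKM with BBR, and 0.71, 0.24 and 0.31 FPKM with SASP. The ranges overlapped and all values were under 1 FPKM. The lowest, BBR mouse 3, corresponds to about 2.39 reads and the highest to about 60 reads, and the difference was -0.21. Irf4 was below the filter on low values, and in a fit without that filter its limma adjusted p was 0.426.

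**Figure D2:**
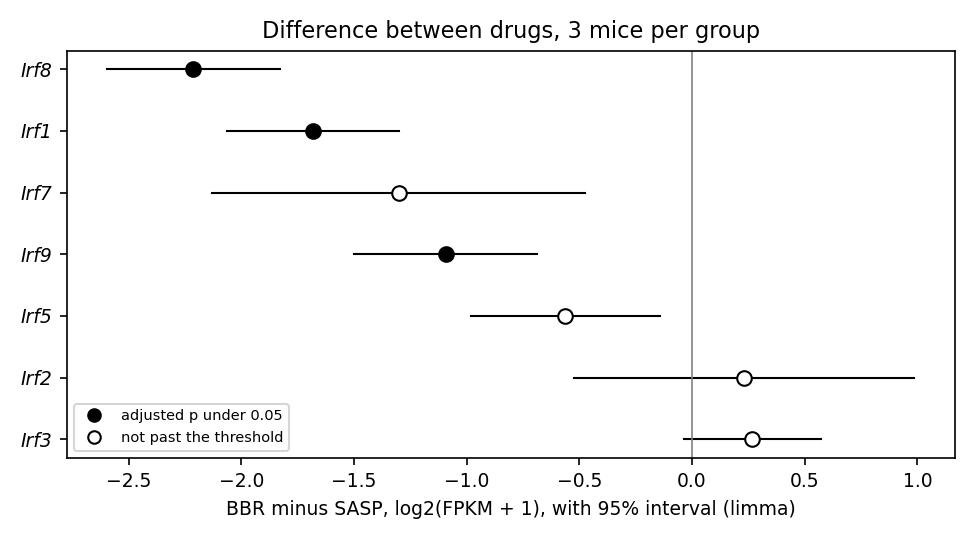
BBR minus SASP difference of the 7 tested genes on the log2(FPKM + 1) scale, with 95% intervals from limma and filled points for those past the threshold. The intervals of Irf8, Irf1 and Irf9 lie fully below 0 and past the threshold, those of Irf7 and Irf5 lie below 0 without passing, and those of Irf2 and Irf3 cross 0.

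FPKM values are per length, so the members can be ordered within a mouse. Irf1 was first, Irf5 the seventh and Irf4 the eighth in all 6 mice. In SASP the order was Irf1, Irf7, Irf8, Irf9, Irf2, Irf3, Irf5 and Irf4 by mean, with Irf7 and Irf8 overlapping in range. In BBR it was Irf1, Irf7, Irf2, Irf3, Irf9, Irf8, Irf5 and Irf4, and the neighbours Irf7 and Irf2, Irf2 and Irf3, and Irf9 and Irf8 overlapped. Irf8 was thus in place 5, 5 and 6 in the BBR mice and place 3 in each SASP mouse. Irf3 held place 4, 4 and 3 in the BBR mice and place 6 in each SASP mouse. A place depends on the other members too, and the Irf3 level itself overlapped and was not called (limma adjusted p = 0.197).

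The summed FPKM of the 8 genes was 333, 273 and 271 in the BBR mice and 798, 579 and 865 in the SASP mice. Of that sum, Irf8 took 5.71%, 6.54% and 6.55% in BBR and 11.2%, 12.1% and 12.6% in SASP. Irf1 took 40.6% to 47.3% in BBR and 52.9% to 56.8% in SASP. Irf8 and Irf1 thus held larger shares in every SASP mouse than in any BBR mouse. Irf2 took 7.57% to 17.7% in BBR and 3.69% to 4.60% in SASP, and Irf3 took 9.50% to 12.2% and 2.81% to 4.52%. Irf7 kept an overlapping share, at 14.9% to 23.5% in BBR and 14.5% to 23.7% in SASP, as did Irf9 at 5.50% to 8.95% and 4.91% to 7.04%.

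**Figure D3:**
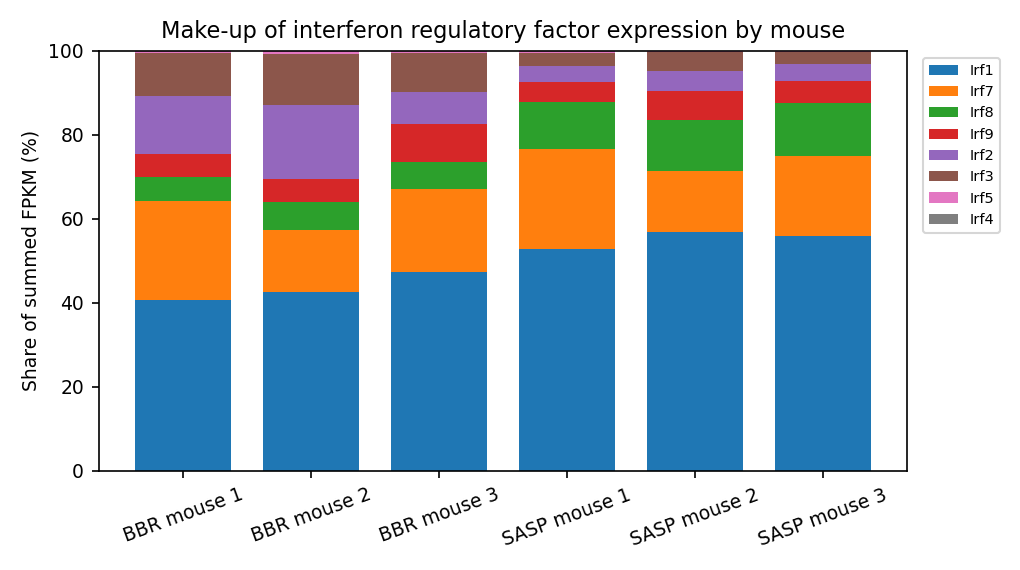
Share of the summed FPKM of the 8 genes taken by each gene, as stacked bars from 0 to 100% for each of the 6 mice. Irf1 takes 40.6% to 47.3% in BBR and 52.9% to 56.8% in SASP, and the Irf8 band is wider in each SASP mouse while the Irf2 and Irf3 bands are narrower.

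A ratio of FPKM between members within a mouse does not depend on how the libraries were scaled. By this linear ratio Irf1 was 2.91, 2.40 and 6.26 times the level of Irf2 in the BBR mice and 14.3, 12.4 and 13.5 times in the SASP mice. The SASP mice were alike, and BBR mouse 3, where Irf2 was low, was the highest of its group. As a difference of log2(FPKM + 1) values, on which the pseudocount acts, the ratio was 1.79 ± 0.708 (SD, n = 3) in BBR and 3.70 ± 0.111 (SD, n = 3) in SASP, a difference of -1.91 (exact permutation test, two-sided, p = 0.1, the smallest that 3 against 3 allows). Irf1 to Irf8 differed the other way, at 2.73 ± 0.0834 in BBR and 2.2 ± 0.0430 in SASP, without overlap (difference 0.53, exact permutation p = 0.1). Irf7 to Irf9 differed by -0.21 and overlapped between groups (exact permutation p = 0.8). Of the 21 ratios among the 7 tested genes, 16 did not overlap between groups and 5 did, and the smallest Benjamini-Hochberg adjusted exact p was 0.131. Without a pseudocount, a setting added after the data were seen, the counts were also 16 and 5. The 21 ratios reuse the same 7 genes, and no share over other gene pairs was computed for comparison. Among single tested genes, BBR lay below SASP without overlap in 16.6% and above in 21.3%. Irf4 was left out of these ratios because it was under 1 FPKM in all mice.

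The tested genes most like each called member across the 6 mice were found by the root mean square difference of centred log2(FPKM + 1) values, as a description. For Irf1 they were Stat2 (0.114), Cmpk2 (0.116), Nampt (0.119), Serpina3f (0.127) and Xaf1 (0.128). For Irf8 they were Lap3 (0.0892), Parp14 (0.132), Dtx3l (0.139), Apol7a (0.159) and Gbp10 (0.168), of which Gbp10 was listed at 0 in all BBR mice. Lap3, a leucine aminopeptidase, was at 30.3, 27.2 and 29.9 FPKM with BBR, and 140, 103 and 147 FPKM with SASP. For Irf9 they were Trim12a (0.10), Gmppb (0.118), Mthfd2 (0.118), Saa1 (0.124) and Rrbp1 (0.126). Saa1, an acute-phase protein gene, was at 4316 to 6800 FPKM in BBR and 9449 to 11128 FPKM in SASP.

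Of 10 genes that signal to the factors, 2 fell, beside 5.04% lower among all tested genes, none rose and the median difference was -0.10. Tmem173, which encodes the DNA-sensing adaptor STING, went from 13.2 FPKM in SASP to 4.79 in BBR (difference -1.28, limma adjusted p = 0.0138). Myd88, the Toll-like receptor adaptor, fell by 0.65 (limma adjusted p = 0.0362), and the kinase gene Tbk1 was at -0.41 (limma adjusted p = 0.0534). Of the interferon and receptor genes, 7 of 10 were in the table and 6 were tested, with no call and a median of 0.26. Those with the smallest p were Ifngr2 at 0.45 (limma adjusted p = 0.0734), Ifnlr1 at 0.36 (0.129) and Ifnar1 at 0.31 (0.159), all receptor chains. Ifng, named after its values were seen because its product is the main inducer of Irf1, was listed at 0 in all BBR mice and at 1.19, 0.30 and 0.21 FPKM in SASP, and was not tested.

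Of 7 partner genes in the JAK-STAT pathway, 3 fell, beside the same 5.04%, and none rose (median -0.20). Stat2 ranged from 10.3 to 11.5 FPKM in BBR and from 34.2 to 47.3 FPKM in SASP (-1.83, limma adjusted p = 0.00187), and Socs1, the feedback inhibitor, was at -2.94 (limma adjusted p = 0.0132).

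Among 9 partner factors 5 were tested and 2 fell, beside 5.04% lower among all tested genes (median -0.65). Batf2, a leucine zipper factor that can pair with IRF1, averaged 14.5 FPKM in BBR and 57.3 in SASP (-1.90, limma adjusted p = 0.00184). Prdm1, a repressor that can bind similar sites, averaged 1.35 and 6.33 FPKM (-1.66, limma adjusted p = 0.0353), and Spib, an ETS factor that partners IRF4 and IRF8, was at -0.65 (limma adjusted p = 0.239). Of 7 cofactors and regulators 2 fell, against that same background, and none rose (median 0.26). These were Usp18, a deconjugase that dampens interferon receptor signalling, at -3.02 (limma adjusted p = 0.0163), and the ubiquitin ligase gene Trim21 at -1.10 (limma adjusted p = 0.0185), while Irf2bpl was at 1.08 (limma adjusted p = 0.0562).

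Downstream genes were read against the background of 5.04% lower and 3.82% higher. Of 22 genes linked to IRF1, 16 fell and none rose, with a median of -1.94. Tap1, a peptide transporter for antigen presentation, averaged 9.05 FPKM in BBR and 135 in SASP (-3.73, limma adjusted p = 0.000468). Cxcl10, a chemokine for T cells, averaged 1.61 and 32.0 FPKM (-3.65, limma adjusted p = 0.000723), and the immunoproteasome gene Psmb9 averaged 18.0 and 180 FPKM (-3.20, limma adjusted p = 0.00179). Il15 was the one gene of this list with a positive difference and is named after its values were seen, at 22.2, 28.8 and 6.47 FPKM with BBR, and 5.41, 6.87 and 8.37 FPKM with SASP (1.15, limma adjusted p = 0.159). The summed level of the list was 1090, 961 and 1068 FPKM with BBR, and 4530, 2169 and 4165 FPKM with SASP, with SASP mouse 2 lowest of its group as in Irf1, Irf7, Irf8 and Irf5.

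Of 24 genes linked to ISGF3 and IRF7, 22 were in the table and tested, 20 fell and none rose, with a median of -2.08. Ifit2, an antiviral RNA-binding protein gene, averaged 2.89 FPKM in BBR and 68.0 in SASP (-4.04, limma adjusted p = 0.00355). Parp14, an ADP-ribosyltransferase gene, was at -2.28 (limma adjusted p = 0.00443), and Ifit3 was at -2.56 (limma adjusted p = 0.00509). The counts of both target lists depended on which mice entered. They were 10 and 10 without BBR mouse 1, 4 and 3 without SASP mouse 1, and 4 and 3 without SASP mouse 3, when fewer genes passed in the whole table as well, at 131, 59 and 51. The medians of the 2 lists were between -2.21 and -1.30 in the 8 alternatives run for the lists, which included no covariate or weights. The lists were written with knowledge of earlier results and share interferon-regulated genes that STATs also drive, so they are not separate readouts of IRF proteins.

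**Figure D4:**
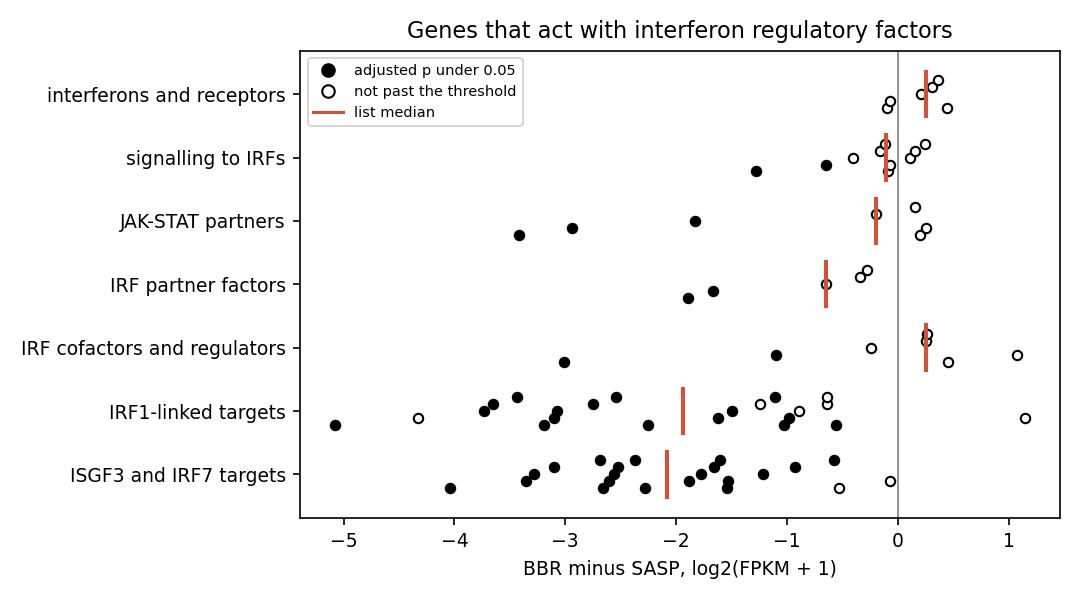
BBR minus SASP difference on the log2(FPKM + 1) scale of each tested gene in the 7 pathway lists, filled where past the threshold, with a bar at the list median and a line at 0. The 2 target lists have medians of -1.94 and -2.08, whereas interferons and receptors, and cofactors and regulators, have medians of 0.26.

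Because Irf4, Irf5 and Irf8 are used mainly by leukocytes, the levels of cell type markers were set beside them. Of 8 pan-leukocyte markers none was called, 7 were negative and the median was -0.74. In 4 of the 8 each BBR mouse lay below each SASP mouse, against 16.6% of all tested genes. The sum of all 8 was 30.9, 42.7 and 26.9 FPKM with BBR, and 87.6, 40.0 and 62.6 FPKM with SASP. It overlapped through BBR mouse 2 and SASP mouse 2. Cd52 averaged 7.33 and 16.7 FPKM, and Lcp1 5.79 and 10.8 FPKM. Of 12 macrophage and dendritic cell markers 5 were tested and none called, with a median of 0.064 and sums of 19.5 to 36.1 FPKM in BBR and 24.4 to 26.5 FPKM in SASP. Among them Cd68 averaged 4.96 FPKM with BBR and 5.66 FPKM with SASP. The dendritic cell markers Flt3, Xcr1, Siglech and Clec9a were under 1 FPKM in all mice.

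B cell markers were low and had their higher values in SASP, as Irf8 did. Cd79a was at 1.56, 1.38 and 0.05 FPKM with BBR, and 13.4, 2.32 and 7.10 FPKM with SASP (-1.97, limma adjusted p = 0.0716), and Cd79b fell by 1.63 (limma adjusted p = 0.0489). These genes were named after their values were seen. Of the 5 B and plasma cell markers tested, Cd79b was lower and Sdc1, which epithelium also expresses, was higher, and the list's sum of 78.4 to 192 FPKM in BBR and 61.8 to 104 FPKM in SASP was mostly Sdc1 and Jchain. T and NK cell markers, of which Nkg7 and Cd3g were tested, were not called and summed to 4.2 to 7.53 FPKM and 3.69 to 8.25 FPKM. The part of these cell types in the Irf8 difference was not tested.

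**Figure D5:**
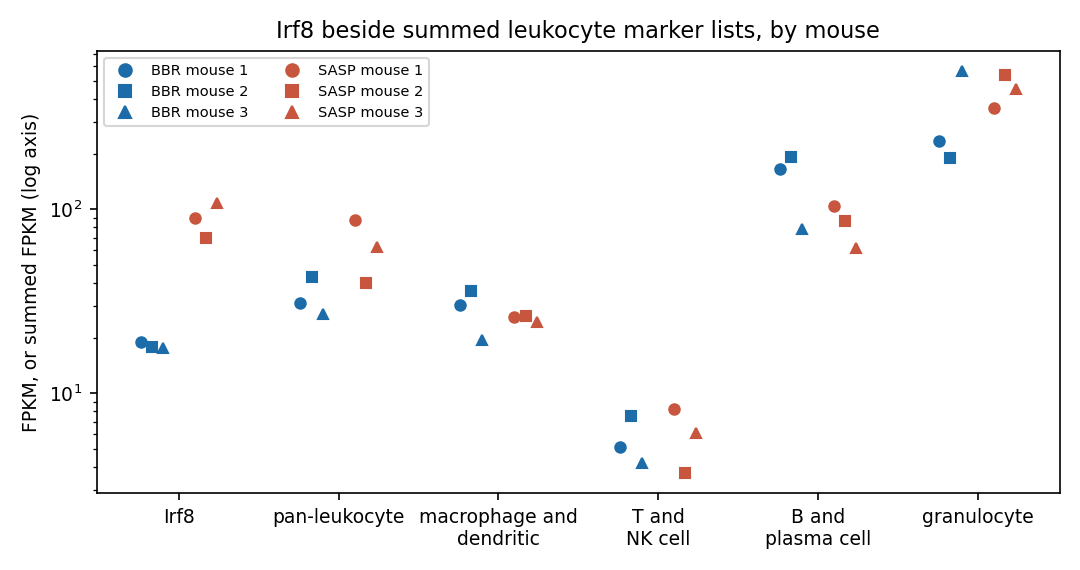
Level of Irf8 beside the summed FPKM of leukocyte marker lists in each of the 6 mice. Irf8 is near 18.2 FPKM in all BBR mice and 69.9 to 109 FPKM in SASP, while the pan-leukocyte sum overlaps at 42.7 FPKM in BBR mouse 2 and 40.0 FPKM in SASP mouse 2, and the macrophage and dendritic sums overlap.

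The tissue was epithelium-rich in all mice. The 7 epithelial markers summed to 5253 to 5745 FPKM in BBR and 5458 to 6501 FPKM in SASP with a median difference of 0.038, 1 lower and 1 higher, led by Krt8 and Krt19. All 9 smooth muscle markers were positive in BBR without a call (median 1.36), at sums of 2807 to 6662 FPKM against 714 to 2242 FPKM. Stroma had 3 of 6 markers higher (median 0.82), beside 3.82% of all tested genes, and endothelium none of 5 called (median 0.51). BBR lay above SASP without overlap in 7 smooth muscle, 5 stroma and 4 endothelium markers, against 21.3% of all tested genes. Of 5 granulocyte markers tested, S100a8 was lower, and the sum of 192 to 567 FPKM in BBR and 357 to 536 FPKM in SASP was mostly Ly6g. With either the smooth muscle or the pan-leukocyte level as a covariate, the differences of Irf1 (-1.57 and -1.53), Irf8 (-2.09 and -2.01) and Irf9 (-1.36 and -1.31) kept their direction but were not called. Their limma adjusted p was 0.10 and 0.128, 0.0569 and 0.0576, and 0.118 and 0.176, and those fits called 19 and 17 genes in the whole table.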

How the data were processed

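RNA from colorectum of 3 BBR and 3 SASP mice was sequenced. The authors deposited 1 table of FPKM per gene. The submitters' processing notes name Bowtie2 2.2.5, RSEM 1.2.12 and build mm9. The annotation and the strandedness of counting are not given in the sources used here. The labels name an Illumina TruSeq kit, and the study's methods describe ribosomal RNA depletion and BGI sequencing. FPKM keep no counts. Read numbers were approximated from the smallest steps of low values and GENCODE M21 transcript lengths, at 16400000 to 18200000 reads a mouse, as an estimate from 31 to 56 genes a mouse.

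Groups followed the treatment labels. FPKM were analysed as log2(FPKM + 1), which understates changes of low genes. Genes with at least 1 FPKM in at least 3 mice (12072) entered limma 3.58.1 in R 4.3.3 (trend, no covariate, two-sided, Benjamini-Hochberg over all genes tested, threshold 0.05). The procedure was tested on simulated data. Ratios were compared by exact permutation. Tables and figures were made with Python 3.11.15 and pandas 2.3.3. The members and all 16 lists (7 pathway, 9 marker) were chosen with earlier results of these data known, and no list was tested as a set. Besides the 8 members, the text names the 5 nearest genes of each called member, up to 3 genes with the smallest p per pathway list, and up to 2 markers with the highest mean per marker list, and says where a gene was added after its values were seen. Some genes that this rule names are not reported here. Alternatives changed the pseudocount, filter, scaling, variance model, weights, covariates and mice included. Promoter windows came from RefSeq (GRCm38.p6), where all 8 members matched by symbol. This build differs from mm9, so no coordinates were taken from the expression table. No protein sequence was used here.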

Additional observations from a re-analysis of the deposited data

How the results depend on the processing

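The 7 tested members kept their direction in every alternative run for them (16 for Irf5, 17 for each of the others), and Irf4 had a value only in the fit without a filter (-0.21). Irf1 and Irf8 passed in 15, Irf9 in 11, Irf5 in 3, and Irf2, Irf3 and Irf7 in 2 each. When each mouse was left out, the differences ranged from -1.83 to -1.56 for Irf1, -2.38 to -2.06 for Irf8, -1.27 to -0.94 for Irf9, -1.66 to -1.08 for Irf7, -0.70 to -0.47 for Irf5, 0.023 to 0.62 for Irf2 and 0.20 to 0.39 for Irf3. With the smooth muscle and the pan-leukocyte covariate, calls were lost for Irf1 (-1.57 and -1.53), Irf8 (-2.09 and -2.01) and Irf9 (-1.36 and -1.31). With array quality weights, Irf2 (0.42), Irf3 (0.43), Irf5 (-0.69) and Irf7 (-1.07) passed, and Irf5 also passed with median-ratio scaling (-0.65) and quantile normalization (-0.70). The number of members lower in BBR was 5 with array quality weights, 0 with the smooth muscle covariate, 0 with the pan-leukocyte covariate and 2 to 3 when each mouse was left out. The number higher was 2 with array quality weights, which called 7126 genes, and 0 to 2 when each mouse was left out, with 2 without BBR mouse 3, where 4018 genes were called. At an unadjusted p of at most 0.05, chosen after seeing the data, 5 members were lower and 0 higher, against 31.8% of all tested genes in either direction. The difference in the log2 ratio of Irf1 to Irf2 ranged from -2.31 to -1.64 when each mouse was left out. The median of the genes that signal to the factors turned from -0.10 to 0.0070 without BBR mouse 3, and ranged from -0.16 to 0.0070 when each mouse was left out. Their count of calls went from 0 to 5 when single mice were left out, that of interferons and receptors from 0 to 4, JAK-STAT partners from 2 to 5, partner factors from 1 to 3, and cofactors from 0 to 5, with the highest value of each without BBR mouse 3. The IRF1-linked list went from 4 to 21 and the ISGF3 and IRF7 list from 3 to 20. Median-ratio scaling moved the median of all genes from 0.097 to -0.020. Causes of these changes were not tested. No paired analysis was possible because the labels give no replicate number that the groups share. Irf4 rested on about 2.39 to 60 reads a mouse, and whether depth or the spread between mice limited it was not tested.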
